A study of Saccharomyces cerevisiae with 18 samples.

Results

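The comparison concerns whether yeast cells carrying the C404A form of Swi6 answered a lipid hydroperoxide differently from wild type cells. It takes the LoaOOH response of the C404A mutant, minus the LoaOOH response of wild type, for each gene. It rests on 12 of the 18 arrays of the series, all on budding yeast, Saccharomyces cerevisiae, and these were chosen by genotype and treatment alone. The 4 groups are C404A cells given linoleic acid hydroperoxide (LoaOOH, 30 µM for 45 min), untreated C404A cells, wild type cells given the same dose for the same time, and untreated wild type cells, with 3 arrays in each. In the C404A strain a cysteine of Swi6 is replaced by alanine. Cultures of all groups grew at 30 °C in synthetic medium without leucine, and total RNA was hybridised to Affymetrix expression arrays. The sources used here give neither how the C404A allele is carried nor whether the strain is 1 clone, and replicates are not described as separate cultures. P-values therefore measure the spread between these arrays, part of which may be technical. The other 6 arrays, from a swi6 deletant, add to the estimate of the spread and were used to choose LoaOOH-responsive genes in cells that neither C404A nor wild type supplied.

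Swi6 is the regulatory subunit shared by SBF, with Swi4, and MBF, with Mbp1, the factors that switch on G1 genes at the entry into the cell cycle. SBF is known for the G1 cyclins and cell wall genes, MBF for DNA replication and repair genes. Budding yeast treated with peroxides pauses in its cycle and turns on antioxidant genes through the factor Yap1, general stress genes through Msn2 and Msn4, and turns down genes for making ribosomes. The study asked whether the cysteine, Cys404, takes part in what Swi6 does in redox control of the cell cycle, and the response difference addresses this for each transcript.

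No gene passed the test for a different response in C404A and wild type cells. Limma called 0 of 5449 genes (0%) at an adjusted p of 0.05, with all arrays and again without the C404A replicate 2 pair. At an unadjusted p of 0.05, 33 genes (0.606%) passed with all arrays, 19 higher (0.349%) and 14 lower (0.257%) in C404A. Without that pair 49 genes (0.899%) passed, 26 higher (0.477%) and 23 lower (0.422%). With no true difference a share of about 0.05 would pass in a well calibrated test, and both shares lie well below that. The p-values of this contrast thus ran high, and 0 calls do not show that the responses are equal. The smallest unadjusted p was 0.00179 with all arrays and 0.000705 without the pair, both for ADA2. These fits do not pair same-numbered arrays. A typical gene had a 95% interval of ± 0.31 (log2) around its response difference with all arrays and of ± 0.33 without the pair. The interval is that of 1 gene alone, and larger differences than this also went uncalled after adjustment over all genes.

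The arrays labelled C404A replicate 2 stood apart from the other 10, and response differences are given with and without them, those of some lists as a range. In the other 5 same-numbered pairs, the difference LoaOOH minus control had an SD across genes of 0.224 to 0.334, while the C404A replicate 2 pair had 0.115. Across the 5449 genes that pair correlated with the other pairs at Pearson's r of -0.46 and -0.45 (C404A pairs 1 and 3) and -0.39, -0.51 and -0.40 (wild type pairs 1, 2 and 3). C404A pairs 1 and 3 correlated with the wild type pairs at 0.57 to 0.73 and wild type pairs with each other at 0.68 to 0.83. These are correlations across genes, which are not independent replicates, and a pair and any other pair share no array. For POT1, a gene that LoaOOH raises in wild type, the array labelled C404A control replicate 2 had a log2 signal of 9.42, against 6.93 in each of C404A controls 1 and 3. The array labelled C404A LoaOOH replicate 2 had 8.89, against 10.05 and 9.78 in C404A LoaOOH replicates 1 and 3. What set these arrays apart was not tested, and without them each C404A group has 2 arrays.

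**Figure D1:**
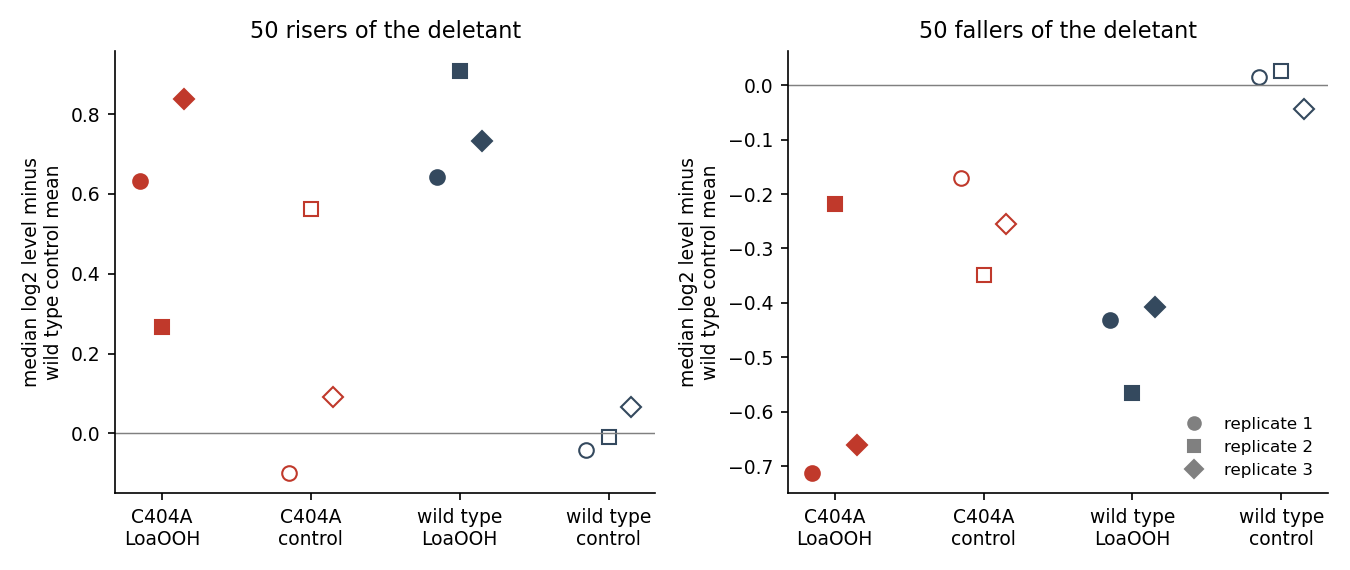
Median log2 level, relative to the wild type control mean, of 50 genes that rose and 50 that fell with LoaOOH in the deletant, by array (C404A red, wild type dark; filled LoaOOH, open control; symbols give the replicate). For the 50 risers the array labelled C404A control replicate 2 lies at 0.562, above its LoaOOH partner at 0.267, and in the other pairs the LoaOOH array lies above its control.

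Other properties of the 12 arrays separated the treatments little. Their medians over the tested genes ran from 10.56 to 10.61. The SWI6 transcript had 10.48, 10.15 and 10.26 in C404A LoaOOH arrays, 10.28, 10.15 and 10.28 in C404A controls, 10.68, 10.29 and 10.65 in wild type LoaOOH arrays and 10.42, 10.15 and 10.56 in wild type controls, so the groups overlap, and the transcript of a point mutant checks no label. In the 6 deletant arrays it had 3.13 to 4.33, below background. Genes of chromosome V lay 0.617 to 0.743 (median per array) above the wild type control mean in all 6 C404A arrays, treated or not, against -0.0188 to 0.0239 in the 6 wild type arrays. The 6 deletant arrays showed a like shift, of 0.68 to 0.79. In the response difference of C404A and wild type this shift in level largely cancels. All 6 C404A arrays carry the shift and no wild type array does. Any influence of it on the LoaOOH response therefore cannot be told apart from that of the C404A allele, for genes of any chromosome. Over 259 chromosome V genes the median response difference was 0.02 without the replicate 2 pair and 0.01 with all arrays. Over 5190 genes of other chromosomes it was 0.00484 and 0.00115. Among the markers of other cell states, the medians of the a-cell genes ran from 12.13 to 12.71 in C404A and 12.66 to 12.93 in wild type arrays, of alpha-cell genes from 6.95 to 7.31 and 6.79 to 7.19, and of meiosis and sporulation genes from 7.11 to 7.53 and 7.11 to 7.87. The 95th percentile of probe sets of another organism, 4.574, marks the background.

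Genes chosen in the deletant had medians of the same sign in C404A replicates 1 and 3 and in wild type, and of the opposite sign in C404A replicate 2. The 50 genes of smallest p among those higher, and the 50 among those lower, with LoaOOH in the 6 deletant arrays alone were taken as a list that used no C404A or wild type array. The median response of the 50 risers was 0.79 and 0.83 in C404A pairs 1 and 3, -0.24 in C404A pair 2, and 0.69, 0.88 and 0.62 in wild type pairs 1 to 3. For the 50 fallers it was -0.51 and -0.40 in C404A pairs 1 and 3, 0.16 in C404A pair 2, and -0.44, -0.59 and -0.38 in wild type. Of the 50 risers, 49, 1 and 50 were above 0 in C404A pairs 1, 2 and 3, and 50, 50 and 49 in the wild type pairs.

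Without the replicate 2 pair, the response difference of the 50 risers had a median of 0.07, with 34 of 50 above 0 (52.4% of all genes were), and that of the 50 fallers a median of 0.02, with 28 of 50 above 0. With all arrays the medians were -0.24, with 48 of 50 risers below 0, and 0.22, with 50 of 50 fallers above 0, where 50.8% of all genes were above 0. None of these genes was called for the difference in either fit. With all arrays no gene was called for the C404A response, so counts of genes that rose or fell are from the fit without the pair. In that fit, 34 of the risers rose and 34 of the fallers fell in C404A, against a background of 1.69% of genes called higher and 2.29% called lower. In wild type 42 rose and 45 fell, against 3.29% and 5.51%. The deletant arrays that chose these genes by smallest p also enter the spread estimate of that fit. This may raise the counts above what genes chosen elsewhere would give. The C404A groups have 2 arrays there and the wild type groups 3, and the difference between these counts was not tested. Across all 5449 genes, the mean of C404A pairs 1 and 3 correlated with the wild type response at r = 0.826, and C404A pair 2 at r = -0.48.

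**Figure D2:**
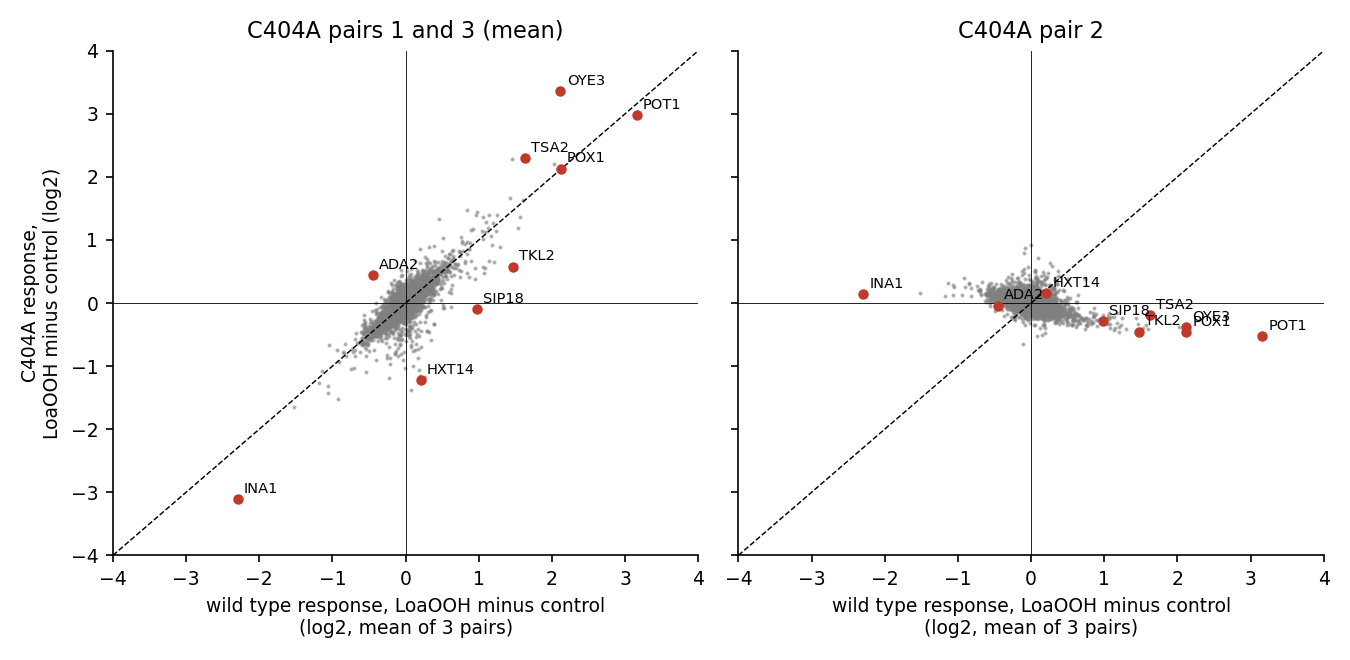
LoaOOH response of each of 5449 genes in C404A (vertical, log2) against wild type (horizontal, log2, mean of 3 pairs), for C404A pairs 1 and 3 on the left and pair 2 on the right; the dashed line marks equal responses. Pairs 1 and 3 follow the line, with POT1 at 2.98 in C404A and 3.16 in wild type, while pair 2 slopes the other way.

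POT1, POX1, ECI1 and PEX18, genes of peroxisomes and their fatty acid breakdown, rose in both genotypes once the replicate 2 pair was left out, and the interval of each difference included 0. POT1 encodes the thiolase of peroxisomal beta-oxidation, the pathway that shortens fatty acids in yeast. Its log2 signal was 10.05, 8.89 and 9.78 in C404A LoaOOH arrays 1, 2 and 3, against 6.93, 9.42 and 6.93 in C404A controls. In wild type it was 9.35, 10.49 and 10.10 with LoaOOH, against 6.47, 6.82 and 7.16 in controls. The treated and control arrays do not overlap in wild type, and in C404A they overlap through replicate 2 alone. Without that pair POT1 rose by 2.98 ± 0.36 in C404A (7.91-fold, limma adjusted p = 0.00164) and by 3.16 ± 0.294 in wild type (8.93-fold, adjusted p = 0.000129). Its response difference was -0.18 (95% interval -1.18 to 0.83), and -1.35 (-2.98 to 0.29) with all arrays. Errors after a fitted value are SE.

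POX1, the acyl-CoA oxidase of the same pathway, had 9.17, 7.54 and 8.41 in C404A LoaOOH arrays, against 6.83, 8.004 and 6.48 in C404A controls. It had 8.36, 8.55 and 8.31 in wild type LoaOOH arrays, against 6.38, 6.01 and 6.48 in wild type controls. Replicates 1 and 3 of C404A and all wild type replicates have the treated array higher, and C404A replicate 2 has it lower. Without the pair POX1 rose by 2.13 ± 0.287 in C404A and 2.12 ± 0.234 in wild type, and the difference was 0.01 (-0.79 to 0.82), and -0.85 with all arrays. ECI1, an enoyl-CoA isomerase, rose 2.63-fold in C404A and 2.37-fold in wild type, with a difference of 0.15 (-0.19 to 0.49), and -0.39 with all arrays. PEX18, a co-receptor for import of POT1 protein into peroxisomes, rose 3.11-fold in C404A and 3.04-fold in wild type, with a difference of 0.03 (-0.58 to 0.65), and -0.65 with all arrays. An interval around 0 does not show that the responses are equal.

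Of 24 beta-oxidation genes measured, 8 rose and 1 fell in C404A without the pair, and 11 rose and 1 fell in wild type. Over all genes 1.69% rose and 2.29% fell in C404A, and 3.29% rose and 5.51% fell in wild type. The list's median response was 0.38 in C404A and 0.38 in wild type, and their median response difference 0.00673, with 13 of 24 above 0. FAA4, a long-chain acyl-CoA synthetase on this list, is the member that fell, by 1.65 ± 0.385 in C404A (adjusted p = 0.0336) and by 1.52 ± 0.314 in wild type (adjusted p = 0.0114). The FAA4 difference was -0.13 without the pair and 0.47 with all arrays. With all arrays the list's median difference was -0.18, with 4 of 24 above 0. Among 25 peroxins, the proteins that build and divide peroxisomes, 2 rose in C404A and 3 in wild type, with a median difference of 0.03, and -0.03 with all arrays. Of 15 glyoxylate cycle and carnitine shuttle genes 0 were called in C404A and 1 rose in wild type, numbers near the shares over all genes. Their median difference, -0.10, was the lowest of all 38 lists without the pair, with 5 of 15 above 0, and with all arrays it was -0.13.

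**Figure D3:**
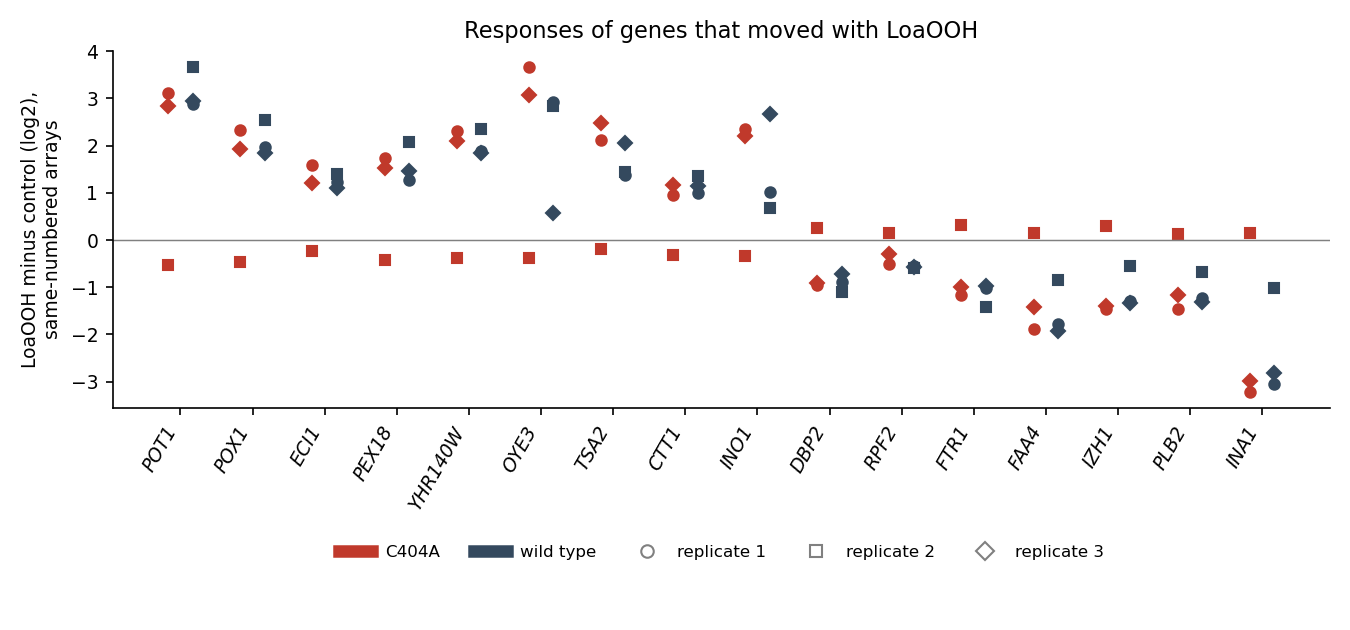
LoaOOH minus control (log2) for each same-numbered pair of arrays, C404A in red left of wild type in dark, for 16 genes that moved with LoaOOH in either genotype; symbols give the replicate. C404A replicates 1 and 3 lie near the wild type points for most genes, C404A replicate 2 lies on the other side of 0 for each gene, and OYE3 has 1 low wild type pair at 0.58.

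OYE3 and TSA2, genes of the antioxidant defence, rose in each genotype without the replicate 2 pair, with higher response values in C404A that did not pass the test of the difference. OYE3, an NADPH oxidoreductase of the old yellow enzyme family, had 9.90, 9.23 and 10.24 in C404A LoaOOH arrays, against 6.24, 9.62 and 7.18 in C404A controls. In wild type it had 9.54, 9.45 and 8.05 with LoaOOH, against 6.61, 6.62 and 7.47. Wild type replicate 3 shows the smallest wild type change, 0.58, where replicates 1 and 2 show 2.93 and 2.84. OYE3 rose by 3.36 ± 0.511 in C404A without the pair and by 2.12 ± 0.417 in wild type. Its difference of 1.24 (-0.18 to 2.67, unadjusted p = 0.0821, limma adjusted p = 1) was the highest of all 5449 genes in that fit, and it was -0.00491 with all arrays.

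TSA2, a cytosolic peroxiredoxin, had 12.76, 12.82 and 13.63 in C404A LoaOOH arrays, against 10.64, 13.01 and 11.14 in C404A controls. It had 13.07, 13.01 and 13.04 in wild type LoaOOH arrays, against 11.69, 11.57 and 10.98. It rose 4.94-fold in C404A without the pair and 3.09-fold in wild type, with a difference of 0.68 (-0.10 to 1.45), and -0.16 with all arrays. CTT1, the cytosolic catalase, had a response of 1.06 in C404A (adjusted p = 0.0553) and rose by 1.17 in wild type (adjusted p = 0.00959), with a difference of -0.11 (-0.90 to 0.67), and -0.57 with all arrays. HSP31, a methylglyoxalase and chaperone, was singled out after its values were seen, as the gene of second smallest p without the pair. It had 12.95, 12.74 and 13.22 in C404A LoaOOH arrays, against 11.69, 12.96 and 11.52 in controls, and 13.26, 13.19 and 13.19 in wild type LoaOOH arrays, against 12.28, 12.36 and 12.46. HSP31 rose 2.79-fold in C404A without the pair and 1.8-fold in wild type, a difference of 0.64 (0.29 to 0.99, unadjusted p = 0.00167, limma adjusted p = 1). With all arrays its difference was 0.07 (unadjusted p = 0.848).

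Of 35 Yap1 antioxidant genes, 9 rose in C404A without the pair and 10 in wild type, and 0 fell in each, where 1.69% and 3.29% of all genes rose. Their median response was 0.34 in C404A and 0.22 in wild type, and their median difference 0.08, with 24 of 35 above 0. The wild type pairs had list medians of 0.29, 0.33 and 0.06, and C404A pairs 1 and 3 had 0.33 and 0.34. Wild type pair 3 was the lowest of these. The arrays of pair 3 have a JC prefix in their description in both genotypes. With all arrays the median difference was -0.04. Of 39 general stress genes under Msn2 and Msn4, 11 rose in C404A and 22 in wild type, while the list medians were 0.42 in C404A and 0.42 in wild type. Their median difference was -0.01 without the pair and -0.25 with all arrays, where 1 of 39 lay above 0. Of 21 drug efflux genes under Pdr1 and Pdr3, 9 rose in C404A and 10 in wild type, with a median difference of -0.00423, and -0.13 with all arrays. Of 20 trehalose and glycogen genes, 4 rose in C404A and 9 in wild type, with a median difference of -0.00874, and -0.18 with all arrays. Of 30 chaperone genes under Hsf1, 1 rose in C404A and 3 in wild type, of which the first is near the share over all genes. Their median difference was -0.06 in both fits, with 6 of 30 above 0 without the pair and 7 with all arrays.

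Many genes for making ribosomes fell in each genotype without the replicate 2 pair. DBP2, an RNA helicase, had 10.82, 11.60 and 11.01 in C404A LoaOOH arrays, against 11.79, 11.35 and 11.92 in controls, and 11.28, 11.07 and 11.27 in wild type LoaOOH arrays, against 12.17, 12.18 and 11.99. Treated arrays lie below controls in wild type and in C404A replicates 1 and 3. DBP2 fell by 0.938 ± 0.124 in C404A without the pair and by 0.905 ± 0.101 in wild type, with a difference of -0.03 (-0.38 to 0.31), and 0.36 with all arrays. RPF2, a factor in 60S subunit assembly, fell by 0.399 ± 0.0854 in C404A and by 0.566 ± 0.0698 in wild type, with a difference of 0.17 (-0.07 to 0.41). With all arrays the RPF2 difference was 0.35 (unadjusted p = 0.0335). Among the 77 listed genes for ribosome biogenesis, 28 were called lower in C404A without the pair and 52 in wild type, and 0 were called higher in each, against the backgrounds of 2.29% and 5.51% called lower. Their median response was -0.40 in C404A and -0.39 in wild type. Their median difference was -0.01, with 30 of 77 above 0, and with all arrays it was 0.16, with 74 of 77 above 0. For this list, leaving out 1 pair of arrays turns the direction. Of 122 cytosolic ribosomal protein genes, 1 fell in each genotype. Their response had a median of -0.09 in C404A and -0.04 in wild type, and the difference one of -0.04, with 15 of 122 (12.3%) above 0, where 52.4% of all genes were. With all arrays the median difference was 0.00248, with 63 of 122 above 0. The members of a list share arrays and are not independent.

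The largest fall called in both genotypes without the pair was that of INA1. INA1, on chromosome XII, had 8.53, 11.51 and 9.37 in C404A LoaOOH arrays, against 11.75, 11.36 and 12.36 in controls. It had 8.25, 10.36 and 9.07 in wild type LoaOOH arrays, against 11.30, 11.38 and 11.88. Replicate 2 shows the smallest change in both genotypes. INA1 fell by 3.1 ± 0.66 in C404A without the pair and by 2.3 ± 0.539 in wild type, with a difference of -0.81 (-2.65 to 1.04), and 0.28 with all arrays. PLB2, a phospholipase B, fell 2.5-fold in C404A and 2.09-fold in wild type, with a difference of -0.26 (-1.12 to 0.60), and 0.22 with all arrays. IZH1 and IZH4 encode membrane proteins of zinc homeostasis. IZH1 fell 2.69-fold in C404A and 2.09-fold in wild type, and IZH4 fell 2.88-fold and 1.9-fold, with differences of -0.37 (-1.27 to 0.54) and -0.60 (-1.48 to 0.27). The IZH1 difference was 0.21 and the IZH4 difference 0.04 with all arrays. FTR1, the high-affinity iron permease, fell 2.12-fold in C404A and 2.2-fold in wild type, with a difference of 0.05 (-0.51 to 0.62), and 0.52 with all arrays. INO1, which makes inositol phosphate for phospholipids, and YHR140W went the other way. YHR140W rose 4.61-fold in C404A and 4.07-fold in wild type, with a difference of 0.18 (-0.39 to 0.75), and -0.68 with all arrays. INO1 rose 4.85-fold in C404A and 2.74-fold in wild type, with a difference of 0.82 (-0.60 to 2.25), and -0.05 with all arrays. Its wild type pairs spread widely, at 1.03, 0.67 and 2.67, and C404A pairs 1 and 3 at 2.35 and 2.21 lie between wild type pairs 1 and 3.

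The targets of SBF and MBF, the factors that contain Swi6, had no call for the difference. In each list a smaller share had a called response than over all genes, 3.98% in C404A and 8.79% in wild type. Whether so few calls differ from these shares was not tested. In a bulk culture, fewer cells expressing a gene and less RNA per cell cannot be told apart. Of 30 SBF targets, 0 were called in C404A or wild type without the pair. The median of their response difference was 0.11, the highest of the 38 lists, with 23 of 30 (76.7%) above 0. With all arrays it was 0.08, with 25 of 30 (83.3%) above 0. The list medians of the pairs were -0.06 and 0.03 in C404A pairs 1 and 3, -0.04 in C404A pair 2, and -0.10, -0.12 and -0.01 in wild type pairs 1 to 3, so the genotypes overlap. Members ran from -0.21 to 0.32 in the difference without the pair, and 0 passed an unadjusted p of 0.05.

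PCL1, a G1 cyclin for the kinase Pho85, was the SBF target of largest difference. PCL1 had 10.50, 10.69 and 10.62 in C404A LoaOOH arrays, against 10.42, 10.75 and 10.24 in controls, and 9.95, 10.12 and 10.31 in wild type LoaOOH arrays, against 10.06, 10.22 and 10.39. Its C404A pair differences, 0.08, -0.06 and 0.38, all lie above those of wild type, -0.11, -0.09 and -0.08. Such a pattern held for 224 of all genes (4.11%), and its mirror image for 178 (3.27%). The difference of PCL1 was 0.23 (-0.16 to 0.62, unadjusted p = 0.234) with all arrays and 0.32 (-0.06 to 0.71, unadjusted p = 0.0899) without the pair.

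Of 38 MBF targets 0 were called in C404A without the pair and 1 fell in wild type. Their median difference was -0.00893, with 15 of 38 above 0, and -0.02 with all arrays, with 17 of 38 above 0. CTF18, a clamp loader subunit for sister chromatid cohesion, had the largest difference of them with all arrays, -0.21 (-0.44 to 0.03, unadjusted p = 0.0806), and -0.25 (-0.50 to 0.00756) without the pair. The G1 cyclin genes had differences without the pair of 0.08 (-0.22 to 0.38) for CLN1, 0.11 (-0.21 to 0.43) for CLN2 and 0.11 (-0.29 to 0.51) for CLN3. The S-phase cyclin genes had -0.11 (-0.44 to 0.22) for CLB5 and -0.02 (-0.48 to 0.43) for CLB6. The ribonucleotide reductase gene RNR1 had 0.05 (-0.29 to 0.39). The partners of Swi6 had -0.19 (-0.75 to 0.38) for SWI4 and 0.07 (-0.31 to 0.44) for MBP1, and SWI6 itself had -0.07 (-0.89 to 0.75). The differences with all arrays were 0.02 for CLN1, 0.05 for CLN2, 0.10 for CLN3, -0.04 for CLB5, -0.02 for CLB6, 0.04 for RNR1, -0.20 for SWI4, 0.03 for MBP1 and -0.10 for SWI6. Without the pair each of the 9 intervals includes 0 and excludes a difference of 1 on the log2 scale in either direction.

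Further cell cycle lists, of 7 to 27 genes, are too short for their counts of called responses to be set apart from the shares over all genes. Of 25 M/G1 genes, expressed as cells divide and re-enter G1, 0 were called in C404A and 1 rose in wild type. Their median difference was 0.08 without the pair and 0.06 with all arrays, with 21 of 25 above 0 in each fit. Of 22 genes of the mitotic CLB2 cluster and 7 core histone genes 0 were called in either genotype, with median differences of 0.05 and -0.03 without the pair, and 0.03 and 0.05 with all arrays. Of 27 DNA damage response genes 0 were called in C404A and 1 rose in wild type, with a median difference of -0.06 and 8 of 27 above 0, and -0.07 with all arrays. CLB2, a mitotic cyclin, had pair differences of 0.68, -0.03 and -0.23 in C404A and -0.32, -0.06 and -0.16 in wild type, with a response difference of 0.41 (-0.20 to 1.01) without the pair and 0.32 with all arrays. The C404A value rests on replicate 1.

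**Figure D4:**
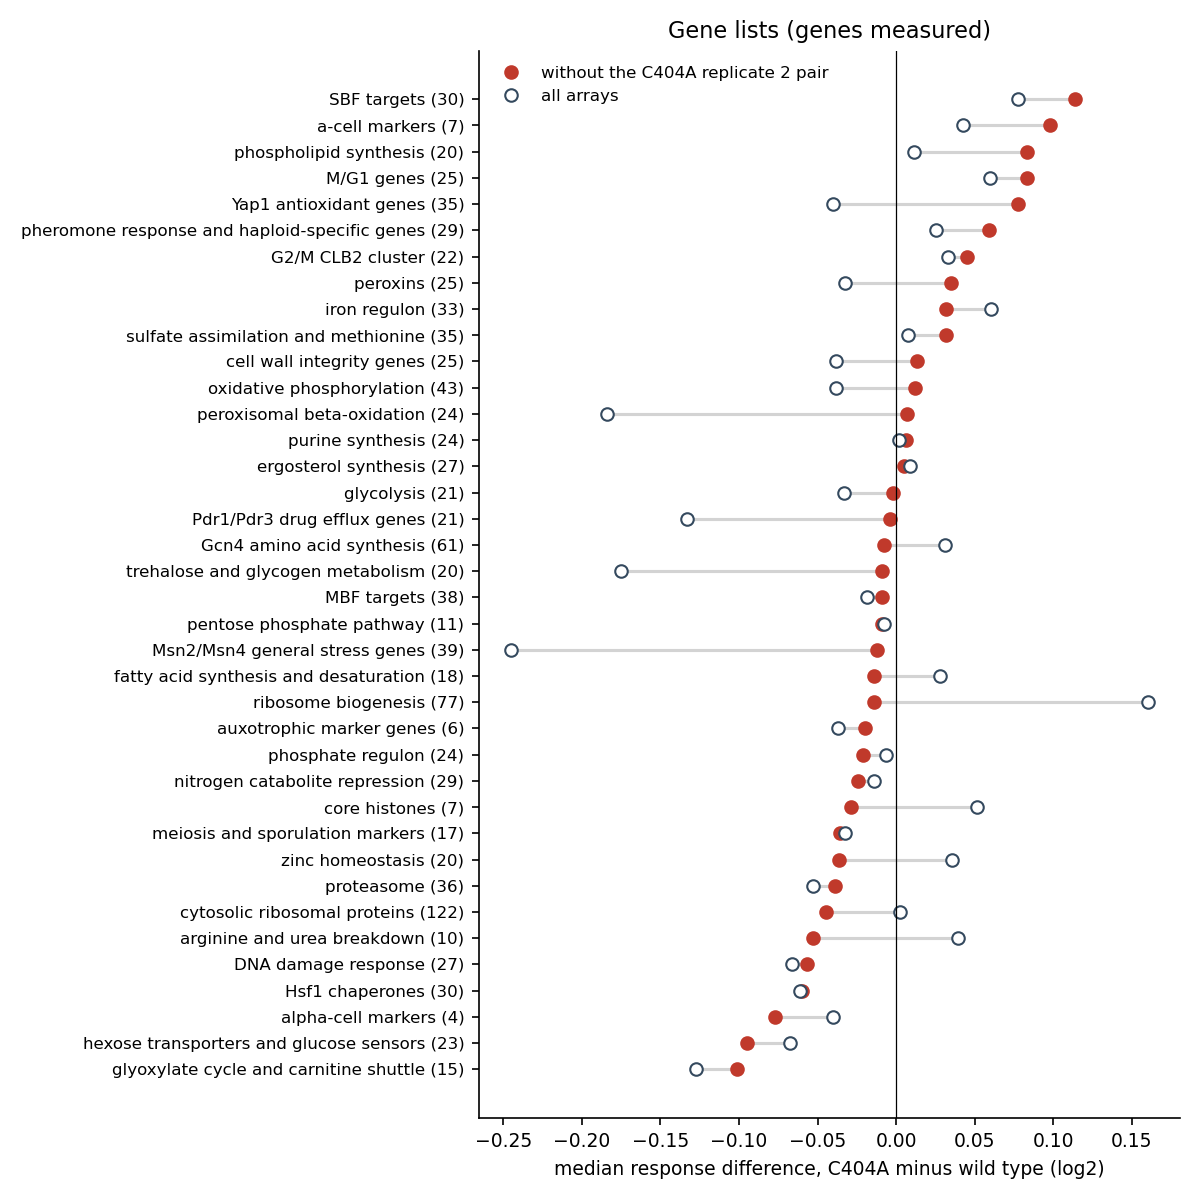
Median response difference (C404A minus wild type, log2) of 38 gene lists, with the number of genes measured, without the C404A replicate 2 pair (filled) and with all arrays (open). Without the pair the medians run from -0.10 to 0.11, and the general stress, beta-oxidation, trehalose, drug efflux and ribosome biogenesis lists move most when the pair is included.

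The remaining lists lay within the same narrow range. Without the pair, the medians of 36 of the 38 lists were within 0.1 of 0, and with all arrays those of 32 were, in a range of -0.25 to 0.16. Phospholipid synthesis had 0.08 without the pair, pheromone response genes 0.06, the iron regulon 0.03, sulfate assimilation 0.03, cell wall integrity 0.01, oxidative phosphorylation 0.01, purine synthesis 0.00647 and ergosterol synthesis 0.00498. Glycolysis had -0.00215, amino acid synthesis under Gcn4 -0.00775, the pentose phosphate pathway -0.00932, fatty acid synthesis -0.01, auxotrophic marker genes -0.02, the phosphate regulon -0.02, nitrogen catabolite genes -0.02 and zinc homeostasis -0.04. The proteasome had -0.04, arginine and urea breakdown -0.05 and hexose transporters -0.09. The a-cell markers had 0.10, alpha-cell markers -0.08 and meiosis markers -0.04. The medians of these lists with all arrays ran from -0.07 for hexose transporters to 0.06 for the iron regulon. No member of any list was called for the difference. Several members with the largest difference of their list with all arrays had smaller ones without the pair. PDR15, a drug transporter, had -0.88 with all arrays and -0.35 (-1.41 to 0.71) without the pair, and NDE2, a mitochondrial NADH dehydrogenase, had -0.63 and -0.37 (-1.07 to 0.32). SSA4, a heat-induced chaperone, had -0.45 and -0.23 (-0.70 to 0.25), and AAH1, an adenine deaminase, had 0.42 and 0.05 (-0.31 to 0.41). CAT2, carnitine acetyltransferase, had -0.32 and -0.02 (-0.52 to 0.47). For PRM6, a pheromone-regulated membrane protein, the value was -0.65 and -0.68 (-1.61 to 0.26).

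ADA2 had the smallest p of all genes in both fits. It encodes an adaptor subunit of the SAGA and ADA histone acetylation complexes and lies on chromosome IV. ADA2 had 8.94, 8.74 and 9.28 in C404A LoaOOH arrays, against 8.83, 8.78 and 8.51 in C404A controls. In wild type it had 8.34, 8.82 and 8.57 with LoaOOH, against 9.16, 9.002 and 8.91 in controls. Every wild type treated array lies below every wild type control, and the C404A groups overlap. The pair differences were 0.11, -0.04 and 0.77 in C404A and -0.83, -0.18 and -0.35 in wild type. The response difference was 0.73 ± 0.192 (0.32 to 1.14, unadjusted p = 0.00179, limma adjusted p = 1) with all arrays and 0.89 ± 0.2 (0.45 to 1.32, unadjusted p = 0.000705, adjusted p = 1) without the pair. ADA2 fell by 0.45 in wild type without the pair (adjusted p = 0.0446), and its C404A response of 0.44 was not called (adjusted p = 0.139).

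With all arrays, SIP18 had the smallest p among genes with the lower response in C404A. Without the pair other genes had a smaller unadjusted limma p, among them YAR009C (0.00999) and YDR182W-A (0.014). SIP18 encodes a hydrophilin that protects yeast from drying. SIP18 had 8.44, 8.58 and 8.46 in C404A LoaOOH arrays, against 8.68, 8.86 and 8.40 in controls, and 8.85, 9.84 and 8.91 in wild type LoaOOH arrays, against 8.27, 8.11 and 8.27. The wild type arrays separate by treatment and the C404A arrays do not. The difference was -1.13 ± 0.368 (-1.92 to -0.35, unadjusted p = 0.0077, limma adjusted p = 1) with all arrays and -1.07 ± 0.431 (-2.00 to -0.14, unadjusted p = 0.0278) without the pair. SIP18 rose by 0.98 in wild type without the pair (adjusted p = 0.0432), with wild type replicate 2 giving 1.73 and the other replicates 0.57 and 0.63. TKL2, a transketolase of the pentose phosphate pathway, had pair differences of 0.64, -0.45 and 0.52 in C404A and 0.70, 2.28 and 1.42 in wild type. Its difference was -1.24 (-2.42 to -0.05, unadjusted p = 0.0419) with all arrays and -0.89 (-2.26 to 0.48, unadjusted p = 0.182) without the pair. PUT4, a proline permease gene, had a difference of -0.92 with all arrays and -0.55 without the pair, and neither passed an unadjusted p of 0.05.

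**Figure D5:**
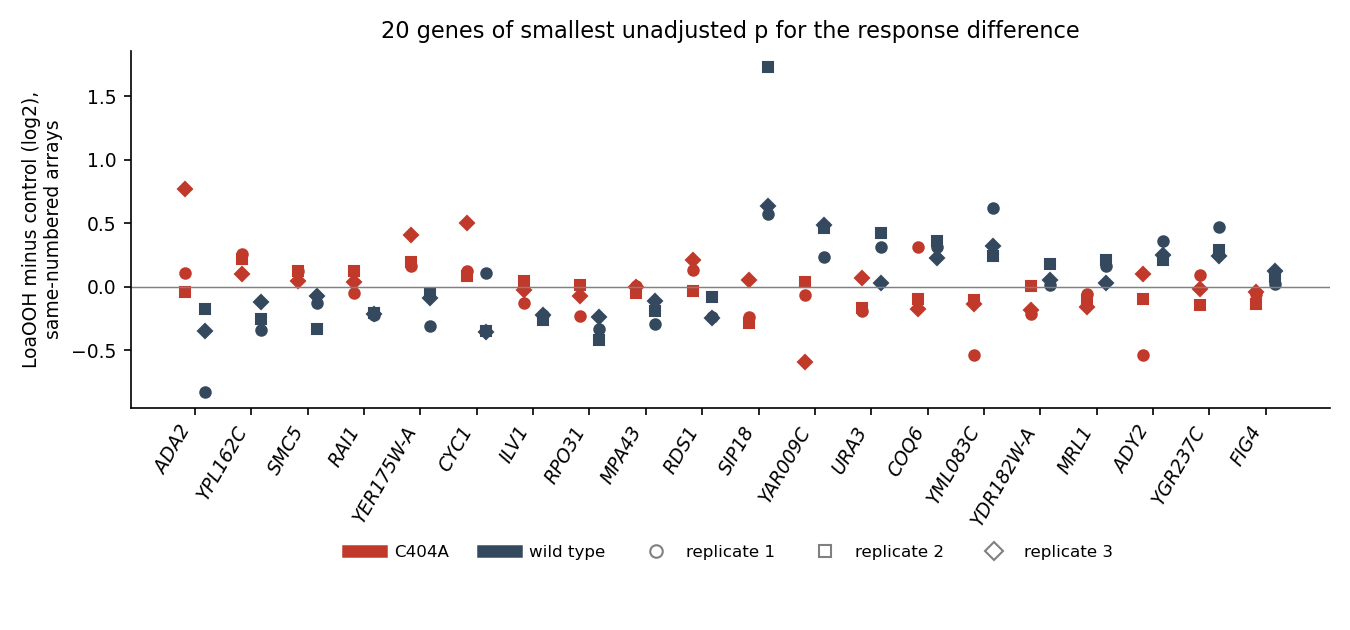
LoaOOH minus control (log2) for each same-numbered pair of arrays, C404A in red left of wild type in dark, for the 10 genes of smallest unadjusted p with the higher response in C404A (left) and the 10 with the lower one (right). The genotypes overlap for CYC1, URA3 and COQ6 and not for the other genes, which were chosen on this same difference (over all genes 4.11% had C404A all above and 3.27% all below wild type).

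Some of the other genes of smallest p had a called response in wild type without the pair, and none had one in C404A. Among those with the higher response in C404A, the difference with all arrays was 0.43 for YPL162C, 0.27 for SMC5, a subunit of a chromosome maintenance complex, and 0.25 for RAI1, a partner of the nuclear exonuclease Rat1. It was 0.43 for CYC1, cytochrome c, 0.20 for ILV1, threonine deaminase, 0.23 for RPO31, the largest subunit of RNA polymerase III, 0.19 for MPA43 and 0.29 for RDS1. Without the pair it was 0.42 for YPL162C, 0.26 for SMC5, 0.205 for RAI1, 0.51 for CYC1, 0.16 for ILV1, 0.18 for RPO31, 0.20 for MPA43 and 0.36 for RDS1. ILV1 (unadjusted p = 0.069) and RPO31 (unadjusted p = 0.0804) no longer passed 0.05 in that fit. YPL162C had pair differences of 0.26, 0.22 and 0.10 in C404A and -0.34, -0.25 and -0.12 in wild type, so that its responses are opposite in sign in all replicates. That held for 20 of all genes (0.367%) with C404A above 0, and for 26 (0.477%) with wild type above 0. YER175W-A had 0.41 with all arrays and 0.44 without the pair, but its mean lay below background in each of the 4 groups. Without the pair RPO31 fell in wild type (-0.33, limma adjusted p = 0.0065), with -0.15 in C404A (adjusted p = 0.299). In that fit RAI1 (-0.21, adjusted p = 0.0393), ILV1 (-0.23, adjusted p = 0.014) and MPA43 (-0.20, adjusted p = 0.0296) also fell in wild type. They were not called in C404A.

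Among genes with the lower response in C404A, the difference with all arrays was -0.60 for YAR009C, a Ty1 retrotransposon gene with near-identical copies elsewhere whose signal is thus uncertain as to source. It was -0.29 for COQ6, of ubiquinone synthesis, -0.65 for YML083C, -0.22 for YDR182W-A, -0.24 for MRL1, -0.45 for ADY2, an acetate transporter, -0.36 for YGR237C and -0.15 for FIG4, a phosphoinositide phosphatase. URA3 had -0.35, and -0.31 without the pair, but lay below background in each group. Their unadjusted p ran from 0.013 for YAR009C to 0.0394 for FIG4, and none passed after adjustment. Without the pair the difference was -0.73 for YAR009C, -0.73 for YML083C and -0.28 for YDR182W-A, which passed an unadjusted p of 0.05. The others no longer did, with -0.23 for COQ6, -0.24 for MRL1, -0.49 for ADY2, -0.30 for YGR237C and -0.12 for FIG4. Their unadjusted limma p ran from 0.0527 for URA3 to 0.115 for COQ6. In that fit COQ6 (0.30, limma adjusted p = 0.0477) and YGR237C (0.33, adjusted p = 0.047) rose in wild type, and neither was called in C404A. Of the genes with the largest difference of their list, SIP18, HXT14 and SPO13 had an interval that left out 0 without the pair. HXT14, a hexose transporter family gene, had -1.42 (-2.75 to -0.10) and SPO13, a meiosis gene, had -1.02 (-1.85 to -0.19). With all arrays HXT14 had -0.97 and SPO13 -0.62, and neither passed an unadjusted p of 0.05. HXT14 and SPO13 are dim, with wild type control means of 5.30 and 5.60 against the background of 4.574.

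The deletant's values for some of these genes are given beside those of C404A. Its response difference against wild type uses the same wild type arrays, so the values are not independent. For ADA2 it was 0.42 ± 0.192 in the deletant and 0.73 in C404A, and for SIP18 it was -0.05 ± 0.368 in the deletant and -1.13 in C404A, with all arrays. For TSA2 it was 1.11 ± 0.607 in the deletant, where C404A had -0.16 with all arrays and 0.68 without the pair. For OYE3 it was 0.69 ± 0.923 in the deletant, where C404A had -0.00491 with all arrays and 1.24 without the pair. For PCL1 it was 0.22 ± 0.183 in the deletant and 0.23 in C404A with all arrays. The difference between the deletant and C404A in these values was not tested.

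The control and LoaOOH arrays of 1 genotype and replicate number deviated together from their group means in C404A and wild type, with correlations across genes of 0.115 to 0.856 over 6 pairs. With genotype and replicate number as a block, limma again called 0 genes for the response difference, with 147 genes (2.7%) at an unadjusted p of 0.05 with all arrays and 165 (3.03%) without the replicate 2 pair. The median SE of the difference was 0.103 with that block and 0.144 without it. Leaving out the pair, these were 0.104 and 0.15. Intervals and p-values printed for single genes are from the fits without the block. For the C404A response, 0 genes were called with all arrays and 319 (5.85%) passed an unadjusted p of 0.05. For the wild type response, 14 genes (0.257%) were called with all arrays, 9 higher (0.165%) and 5 lower (0.0918%), and 1 with that block. Leaving out any 1 wild type array gave 0 or 1. Without the pair, 217 genes (3.98%) were called in C404A and 479 (8.79%) in wild type, and with the block 635 and 967.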

How the data were processed

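The submitters' processing notes name Affymetrix Expression Console and PLIER as the tools with which the authors made the deposited log2 values. The log2 scale was taken from the value range. No source used here gives the versions, the settings or how arrays were normalized to each other. Values were used as deposited. Of 10928 probe sets, 5498 are assigned to 1 yeast gene by the platform annotation, named through RefSeq R64 gene identifiers. Where a gene had several, 1 without a suffix letter was preferred, then the brightest, which left 5449 genes, dim ones included. In limma 3.58.1 (R 4.3.3), 6 group means were fitted to 18 arrays with 12 residual degrees of freedom, and the response difference was a contrast with two-sided eBayes tests, adjusted by Benjamini-Hochberg over all genes at 0.05. The script was tested on simulated data.

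Genes named are the 10 of smallest p in each direction (none passed), 10 fixed cell cycle genes, the largest difference of a list and the largest responses, a selection of which is printed. Members, the 38 gene lists and tests were chosen with earlier results of these data known. Same-numbered control and LoaOOH arrays were taken as pairs in C404A and wild type, since 6 of 6 correlations of their deviations exceeded 0.1, and the protocol speaks of equal aliquots. This check is weak for C404A, where pairs 1 and 2 had 0.115 and 0.182. Some arrays of different genotypes with 1 number also exceeded the limit, reaching 0.56. Control and LoaOOH arrays of different numbers were not compared. In the deletant 2 of 3 exceeded 0.1, the lowest being 0.055. The block within genotype was also applied to the deletant arrays. Alternatives changed the arrays, blocks, normalization, filters, weights and moderation. The number of arrays limits the precision. No sequences were used here.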

Additional observations from a re-analysis of the deposited data

How the results depend on the processing

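For the response difference the count of called genes was 0 in each of the 30 alternatives run, and the lowest adjusted p of any gene in any of them was 0.975. The count at an unadjusted p of 0.05 ran from 23 to 165 genes (0.422% to 3.03%). Each of these shares lies below the 0.05 that a well calibrated test would give with no true difference. Of the 20 genes of smallest p, 19 kept their sign in all alternatives, and URA3, which is below background, did not in 1. These genes were chosen on this same difference, and the alternatives reuse the same arrays. Their kept signs are therefore no independent support. The JC arrays alone have 1 array a group and gave values with no test. Medians of gene lists depended on the C404A replicate 2 pair. Without it the median difference was -0.01 for general stress, 0.00673 for beta-oxidation and -0.01 for ribosome biogenesis genes, and with all arrays -0.25, -0.18 and 0.16.

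The counts of responses depended on the C404A replicate 2 arrays. For wild type the count was 14 with all arrays and 479 without that pair, though no wild type array was removed, since all arrays share the estimate of the spread. It was 0 with the 12 arrays of wild type and C404A only, with the replicate number as a replicate block, with the prefix as a term, and in the CT arrays alone. It was 1 with the replicate block within genotype, 1231 with array weights and 107 with trended, robust moderation. Leaving out single arrays gave 0 to 459. It was 459 without the C404A LoaOOH replicate 2 array, 99 without the C404A control replicate 2 array, 126, 23 and 22 without C404A LoaOOH replicate 1, C404A control replicate 1 and C404A LoaOOH replicate 3, and 0 or 1 without any 1 wild type array. For C404A the count was 0 with all arrays and 217 without the pair, and 0 to 183 leaving out single arrays, with 183 without the LoaOOH and 14 without the control array of replicate 2. In fits added after the data were seen, all without the pair, wild type and C404A counts were 364 and 115 with the arrays of these genotypes only, 403 and 122 with the replicate number as a replicate block, 967 and 635 with the block within genotype, 489 and 242 with quantile normalization and 1227 and 21 with array weights. Arrays of different genotypes that share a replicate number deviated from their group means with correlations of -0.74 to 0.56, so the number was not taken to pair them.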
